A study of Mus musculus with 36 samples.

Results

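The genes described here are 39 interferon-stimulated genes of the mouse, listed by name with earlier results of these data known. Their transcripts were measured in cultured lung pericyte-like cells exposed to fluid washed from uninjured or injured lungs. All 39 were found by gene symbol among the 48795 gene identifiers of the count table. The cells were grown from mouse lung digests, depleted of cells carrying CD31, CD45 or CD326, selected on PDGFRβ, a receptor of pericytes and fibroblasts, and cultured again. They then received reduced-serum medium mixed with an equal volume of saline (media), of bronchoalveolar lavage fluid (BALF, the fluid recovered after rinsing the airways) from uninjured lungs, or of BALF from injured lungs. RNA was taken after 6 or 24 h. The 36 libraries form 12 groups of 3, by treatment, time and the sex given in the labels. The labels give no mouse strain, genotype, age or kind of injury, and whether the 3 libraries in each group stem from different mice or cultures is not stated. The p-values therefore measure the spread between these libraries, which may be technical.

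Interferons are secreted signalling proteins. Cells release those of type I and type III on sensing foreign or misplaced nucleic acid, among other triggers. Type I and type III interferons act through receptors that activate the kinases JAK1 and TYK2, which phosphorylate STAT proteins; STAT2 is among those that join IRF9 and bind the interferon-stimulated response element (ISRE) in promoters. Interferon gamma acts through JAK1 and JAK2 and on the gamma-activated site (GAS), and IRF1 and NF-kB carry further signals to many of the same genes. The products sense viral RNA and DNA, block translation, trap or degrade virus, mark proteins with the ubiquitin-like ISG15, or call in T cells as chemokines. Pericytes wrap small vessels and can receive such signals from neighbouring and infiltrating cells.

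Total counts ran from 17134840 to 35991683 per library. Summed pericyte markers (9 genes) ran from 591.4 to 2566 CPM (counts scaled by the TMM-adjusted library total). Summed fibroblast markers (6 genes) ran from 9664 to 22700 CPM, so transcripts of both lists were present. Among the pericyte markers, Pdgfrb, which encodes the receptor used for selection, had the most counts over all 36 libraries (546109), followed by Cd248 (339306). Kcnj8 (135 counts) and Abcc9 (171 counts) were nearly absent, so the pericyte sum says little about them. Macrophage markers summed to 17.1 to 85.0 CPM and endothelial markers to 7.69 to 203.8 CPM in all 36 libraries, although carriers of CD45 and CD31 had been removed, while lymphocyte markers stayed at 0.609 CPM or less. In 4 libraries whose description numbers begin differently from the other 32 (1 of uninjured BALF, the male replicate 3 at 24 h, and 3 of media, the female replicate 2 at 24 h and the male replicates 3 at both times), the macrophage gene Lyz2 lay at 5.42 to 9.44 CPM against 21.8 to 61.1 CPM in the rest. The closest 2 libraries of a group were replicates 1 and 2 in 10 of 12 groups and replicates 2 and 3 in the other 2, of which female uninjured BALF 24 h is one. The chi-square per degree of freedom between 2 libraries of a group was at least 6.54, so no library was a copy of another. Repeat preparations of 1 culture would also exceed counting noise, so whether replicates 1 and 2 are separate cultures is not known; each library was counted as 1 sample, and values with libraries 1 and 2 summed are given beside the results. In female media 24 h, libraries 1 and 2 were less alike (164.2) than 2 and 3 (75.13), and that sum joins unlike libraries. Whether a replicate number marks the same source in each group is not stated either, and in female media 24 h and female uninjured BALF 24 h it was library 1, not library 3, that differed most from the others, which limits what leaving out all libraries of 1 number means.

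The promoters of 5 members are shown because the results turn on them: Cxcl10 and Gbp2 had the smallest p-values with injured BALF at 6 h, Isg15 and Ifit1 were among the members that varied most between libraries of a group, and Ifit2 varied against the others. Each run holds the 250 bases before and the 50 bases after a gene's start in RefSeq's GRCm38.p6 table, read 5′ to 3′ on the gene's strand, and positions are counted from 1 at its 5′ end. Capitals mark matches to an ISRE core (GAAA, any 2 bases, GAAA), a GAS core (TTC, any 3 bases, GAA) or an NF-kB core (GGG, any 3 bases, TTCC) on either strand.
Cxcl10: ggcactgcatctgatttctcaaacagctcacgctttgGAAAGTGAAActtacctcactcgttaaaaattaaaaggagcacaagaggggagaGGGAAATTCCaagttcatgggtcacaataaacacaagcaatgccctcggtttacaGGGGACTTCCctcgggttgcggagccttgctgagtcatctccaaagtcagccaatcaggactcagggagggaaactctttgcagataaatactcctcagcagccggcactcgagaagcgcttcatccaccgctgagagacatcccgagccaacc
Gbp2: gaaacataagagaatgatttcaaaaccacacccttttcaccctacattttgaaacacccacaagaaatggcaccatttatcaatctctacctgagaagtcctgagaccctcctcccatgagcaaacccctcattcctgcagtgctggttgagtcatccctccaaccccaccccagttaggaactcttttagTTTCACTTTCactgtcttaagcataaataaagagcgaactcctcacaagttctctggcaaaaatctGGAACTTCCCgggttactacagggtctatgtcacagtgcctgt
Isg15: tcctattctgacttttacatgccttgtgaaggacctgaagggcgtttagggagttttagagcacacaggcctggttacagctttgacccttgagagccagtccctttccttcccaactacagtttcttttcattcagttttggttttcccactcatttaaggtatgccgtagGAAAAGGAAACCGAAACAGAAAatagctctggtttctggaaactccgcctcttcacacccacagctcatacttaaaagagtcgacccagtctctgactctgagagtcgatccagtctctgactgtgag
Ifit1: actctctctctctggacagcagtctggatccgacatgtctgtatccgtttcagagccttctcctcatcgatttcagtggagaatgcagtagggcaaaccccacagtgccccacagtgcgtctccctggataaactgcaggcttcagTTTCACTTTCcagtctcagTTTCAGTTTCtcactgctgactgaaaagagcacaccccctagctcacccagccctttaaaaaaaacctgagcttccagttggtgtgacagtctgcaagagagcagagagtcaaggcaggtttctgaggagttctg
Ifit2: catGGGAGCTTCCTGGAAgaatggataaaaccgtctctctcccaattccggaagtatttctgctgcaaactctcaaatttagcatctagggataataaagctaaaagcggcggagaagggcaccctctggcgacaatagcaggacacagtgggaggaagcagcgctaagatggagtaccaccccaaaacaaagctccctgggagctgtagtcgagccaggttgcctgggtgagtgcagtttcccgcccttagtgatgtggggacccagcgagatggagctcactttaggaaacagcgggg
The Cxcl10 window lies at chr5:92348840-92349139 on the minus strand, with an ISRE match at base 38 and NF-kB matches at bases 92 and 147. The Gbp2 window at chr3:142620413-142620712 on the plus strand has an ISRE match at base 192 and an NF-kB match at base 258, just past the start. The Isg15 window at chr4:156200769-156201068 on the minus strand has 3 overlapping ISRE matches, at bases 173, 179 and 185, and the Ifit1 window at chr19:34640639-34640938 on the plus strand has ISRE matches at bases 147 and 166. In the Ifit2 window at chr19:34550444-34550743 on the plus strand, an NF-kB match at base 4 overlaps a GAS match at base 10, and there is no ISRE match. A second Ifit2 start in the table has none of the 3 motifs.

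RefSeq windows were found for 30 of the 39 members. ISRE cores stood in 17 of these 30 members and in 3.44% of all 32851 windows in the table. The 17 are Bst2, Cxcl10, Ddx58, Eif2ak2, Gbp2, Gbp3, Gbp7, Ifih1, Ifit1, Ifit3, Igtp, Irgm1, Isg15, Oas1a, Oas3, Rsad2 and Stat2. GAS cores stood in 8 members (8.3% of all windows) and NF-kB cores in 6 members (5.56% of all windows). A match describes letters in this window, and the absence of one says only that these letters are not there. Position was shared too: 20 members lay in 8 runs of neighbouring genes no more than 500000 bases apart (GENCODE M21, GRCm38). Gbp7, Gbp3 and Gbp2 lie within chr3:142530342-142638008, Ifit2, Ifit3 and Ifit1 within chr19:34550694-34650009, Parp14, Dtx3l and Parp9 within chr16:35832874-35972605, and Cxcl9 and Cxcl10 within chr5:92321347-92348889.

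Levels differed widely between members. Per kb of exon and over all libraries, Bst2, the membrane tether that holds budding virus on the cell, was highest at 36.1 CPM per kb. Isg15 followed at 14.8 CPM per kb, Irgm1, a GTPase of cell-autonomous immunity, at 12.1 and Ifi35, an interferon-induced leucine zipper protein, at 10.6. The tested members of lowest level were Oas3 at 0.0307 CPM per kb, Oas2 at 0.175, Mx2 at 0.183 and Rsad2 at 0.185. In media at 6 h the spread over 6 libraries was wide for Bst2 (29.3 ± 14.7 CPM per kb, mean ± SD) and Isg15 (9.21 ± 7.15) and narrow for Irgm1 (12.2 ± 0.482), so Isg15 and Irgm1 do not differ beyond their spread while each Bst2 library (at least 18.6 CPM per kb) lay above each Irgm1 library (at most 12.8). Mx1, a dynamin-like GTPase that blocks influenza virus, had 94 counts over all 36 libraries and Cxcl9, a T cell chemokine, had 55. Neither passed the filter on low counts, which left 37 tested members among 15901 tested genes.

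Injured BALF was compared with uninjured BALF at 6 h to ask what injury adds to lavage fluid. At 6 h, 6 of the 37 tested members rose and 0 fell: Cxcl10, Gbp2, Rtp4, Gbp7, Parp14 and Ifit2 (1.96% of all tested genes were called higher, 1.45% lower and 3.40% either way). The median log2 fold change of the tested members was 0.80, where that of all tested genes was -0.0001. Fitted changes were above 0 for 37 of the 37, against 50% of all genes. The members were measured in the same 12 libraries and vary together between them, so they are not separate observations. They were also chosen with earlier results of these data known, so the shares of all genes beside them only describe. In 8 members (Cxcl10, Gbp2, Gbp3, Gbp7, Parp14, Parp9, Dtx3l and Rtp4) each of the 6 injured libraries lay above each of the 6 uninjured ones, a pattern that 1.97% of all tested genes showed. When the libraries numbered 1 and 2 of each group were summed into 1, 2 members were called, Cxcl10 and Gbp2. Without male injured BALF 6 h replicate 1 the count was 3.

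At 24 h, 3 of the 37 tested members rose and 0 fell: Cxcl10, Gbp3 and Rtp4 (2.39% of all tested genes were called higher, 2.04% lower and 4.43% either way). Gbp3 and Rtp4 were no longer called in a fit with a replicate block within each sex. As at 6 h, the values describe a set chosen with earlier results of these data known. The members' median log2 fold change was 0.82 (all tested genes, -0.0038), and 37 of 37 fitted changes were above 0. That median was 1.42 without all libraries numbered 1 and 0.29 without all libraries numbered 3. No member had its injured libraries all above the uninjured ones (1.06% of all tested genes did). The count moved between 1 and 8 when single libraries were left out. It was 8 without female uninjured BALF 24 h replicate 1, the library in which members were highest in its group, and 1 without any one of male injured BALF 24 h replicates 1 and 2, female uninjured BALF 24 h replicate 3, or the male uninjured BALF 24 h replicates 1, 2 and 3. It was 5 without male injured BALF 24 h replicate 3. Other markers moved at 24 h as well: summed neutrophil markers (6 genes, 3 tested, Camp and Mmp8 called higher, Ly6g with 1 count and Ngp with 4 in all libraries) ran from 5.35 to 8.97 CPM with injured and from 0.762 to 4.74 CPM with uninjured BALF. Summed pericyte markers (9 genes, 8 tested, Mcam, Cd248 and Ebf1 called lower, none at 0) ran from 591.4 to 996.9 CPM with injured and from 965.3 to 1521 CPM with uninjured BALF. Their part in the members' values was not tested, and in bulk RNA fewer cells of a type and less RNA per cell cannot be told apart.

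**Figure D1:**
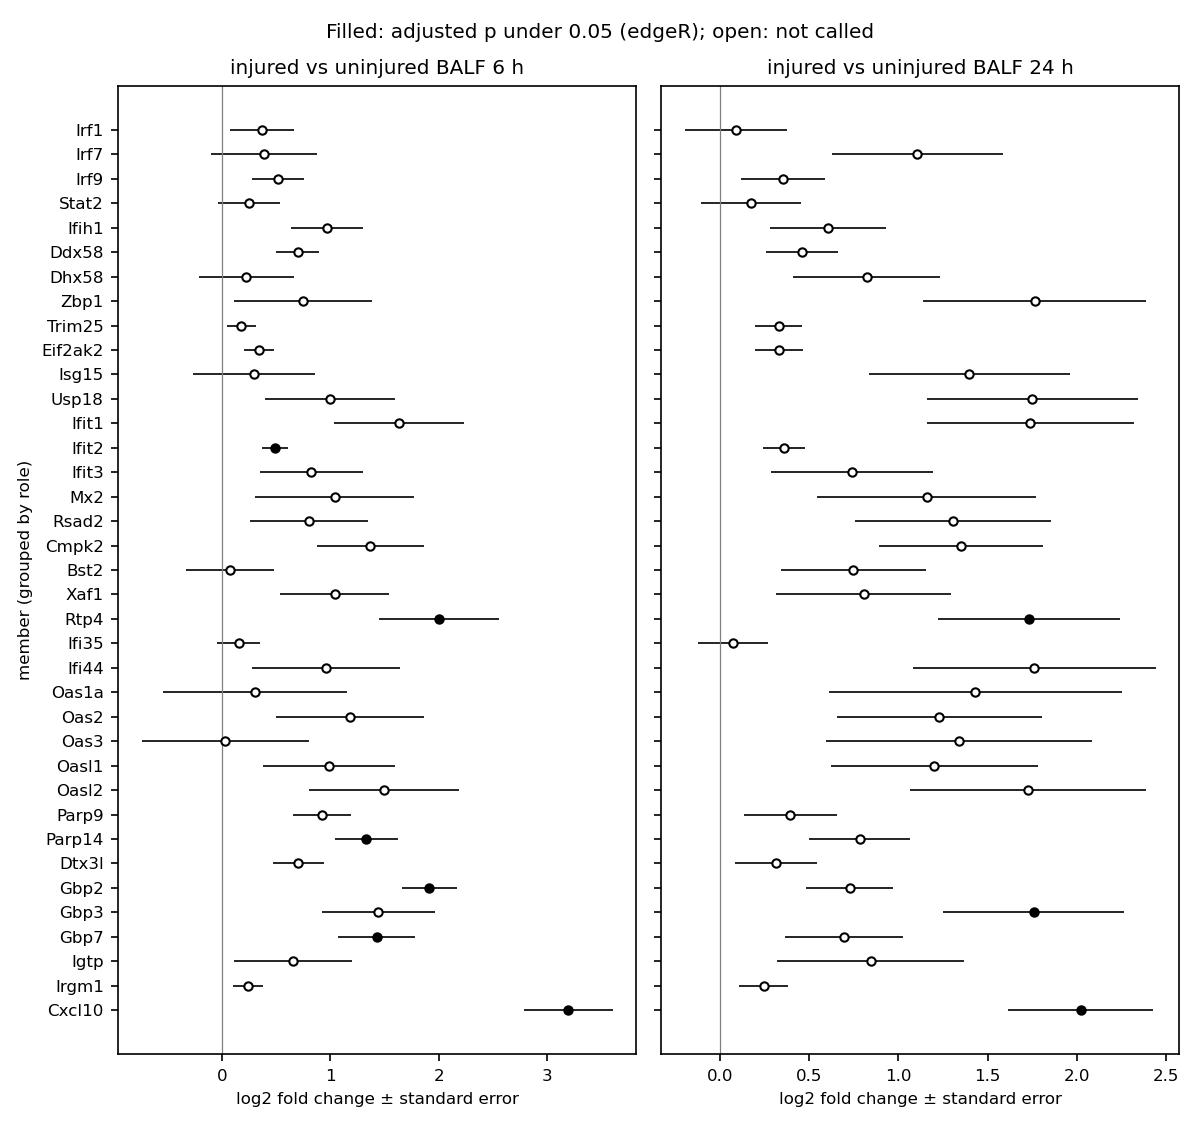
Log2 fold change of injured against uninjured BALF for the 37 tested members at 6 h and 24 h, with standard errors from the edgeR fit; filled points passed the adjusted threshold. Each of the fitted values lies above 0 at both times, and 6 members at 6 h and 3 at 24 h passed.

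The chemokines held the largest change. Cxcl10 draws CXCR3-bearing T cells and natural killer cells to inflamed tissue. Its level at 6 h had a lowest, median and highest value of 0.415, 0.874 and 0.996 CPM in the 6 uninjured BALF libraries and of 5.56, 7.15 and 9.47 CPM in the 6 injured BALF libraries. The groups did not overlap, and the injured values lay close together across replicate numbers and sexes. The increase was 9.16-fold (log2 3.20 ± 0.41 standard error, edgeR adjusted p = 9.6e-06). At 24 h the injured libraries had a lowest, median and highest of 0.694, 2.12 and 5.88 CPM, against 0.222, 0.649 and 1.01 CPM with uninjured BALF. The groups overlapped, because female injured BALF 24 h replicate 2 at 0.694 CPM lay inside the uninjured range. The increase at 24 h was 4.06-fold (log2 2.02 ± 0.40, edgeR adjusted p = 0.0027); it was 1.26 on the log2 scale without female injured BALF 24 h replicate 3, still called, and was no longer called without the libraries numbered 1 or 3 or in a fit of the compared groups alone. Cxcl9 had 16 counts over the 6 injured BALF 6 h libraries, at least 1 in each, and 0 in the 6 uninjured ones. Against a floor of 3 counts over the uninjured group its observed level was 5.36-fold higher. That floor covers counting error of the 0 only, and the 16 counts were taken as exact, so the true change may be smaller. In media at 6 h, female replicates 2 and 3 had 2 and 7 Cxcl9 counts, and the other libraries had 0.

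Guanylate-binding proteins and related GTPases attack membranes that enclose intracellular microbes. Of the 5 tested, Gbp2 and Gbp7 rose at 6 h, Gbp3 rose at 24 h, and the family's median log2 fold change was 1.43 at 6 h and 0.73 at 24 h. Gbp2 had a lowest, median and highest level of 7.02, 11.5 and 15.3 CPM with uninjured and 23.6, 39.99 and 67.2 CPM with injured BALF at 6 h. The groups did not overlap, and the highest library was male injured BALF 6 h replicate 1. The change was 3.77-fold (log2 1.91 ± 0.25, edgeR adjusted p = 1.5e-05). At 24 h Gbp2 had 8.86, 16.1 and 20.5 CPM with uninjured and 15.7, 25.3 and 37.4 CPM with injured BALF (log2 0.73 ± 0.24, edgeR adjusted p = 0.091). The groups overlapped at that time.

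Gbp7 had 0.779, 1.10 and 1.33 CPM with uninjured and 1.86, 2.67 and 5.68 CPM with injured BALF at 6 h. The groups did not overlap, and male injured BALF 6 h replicate 1 stood well above the other 5 injured libraries. The change was 2.69-fold (log2 1.43 ± 0.36, edgeR adjusted p = 0.018), and the call was lost in 3 of 12 fits that left out 1 library. In GENCODE transcripts, 12.7% of the 50-base words of Gbp7 also occur in other genes, among them Gbp3 and Gbp11, so reads could be split between copies. Gbp3 had 1.39, 2.78 and 6.51 CPM with uninjured and 2.28, 10.2 and 21.2 CPM with injured BALF at 24 h. Both groups were wide and overlapped. The change was 3.38-fold (log2 1.76 ± 0.51, edgeR adjusted p = 0.043), and without female injured BALF 24 h replicate 3 it was 1.00 with an edgeR adjusted p of 0.21. At 6 h Gbp3 had 0.870, 1.83 and 2.95 CPM with uninjured and 3.33, 4.26 and 9.83 CPM with injured BALF, with no overlap (log2 1.44 ± 0.52, edgeR adjusted p = 0.16). Irgm1, the GTPase with the most counts, ran from 48.6 to 64.9 CPM (median 57.7) with uninjured and from 46.2 to 94.4 CPM (median 67.9) with injured BALF at 6 h, and had medians of 69.2 and 75.5 CPM at 24 h. Those groups overlapped at both times (log2 0.24 ± 0.14 and 0.25 ± 0.14). Igtp, another immunity-related GTPase, did not pass either (0.66 ± 0.54 and 0.85 ± 0.52).

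The ADP-ribosylation group holds Parp9 and Dtx3l, which form a complex that modifies histones, and Parp14, a mono-ADP-ribosyltransferase. Parp14 rose at 6 h, and the group's median log2 fold change was 0.93 at 6 h and 0.39 at 24 h. Parp14 had 3.75, 4.63 and 5.16 CPM with uninjured and 6.63, 10.4 and 20.3 CPM with injured BALF at 6 h. Its groups did not overlap, and the uninjured libraries were close together. The change was 2.52-fold (log2 1.33 ± 0.29, edgeR adjusted p = 0.0064) and was called in each of the 12 fits that left out 1 library, though not with libraries 1 and 2 summed. Parp9 had 5.95, 8.51 and 9.73 CPM with uninjured and 11.4, 15.8 and 19.97 CPM with injured BALF at 6 h, also without overlap (log2 0.93 ± 0.27, edgeR adjusted p = 0.051). Dtx3l had 5.45, 6.34 and 8.68 CPM with uninjured and 8.80, 10.4 and 14.5 CPM with injured BALF, again without overlap (log2 0.70 ± 0.24, edgeR adjusted p = 0.11). Parp9 and Dtx3l overlap on opposite strands, and whether counting used the strand is not stated. At 24 h each of the 3 overlapped between groups, and Parp14 had medians of 11.1 CPM with uninjured and 16.2 CPM with injured BALF (log2 0.78 ± 0.28, edgeR adjusted p = 0.13).

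Of the 12 antiviral effectors, 11 were tested; Rtp4 and Ifit2 rose at 6 h and Rtp4 at 24 h. Rtp4, a zinc-finger protein that restricts flaviviruses, had 0.229, 0.769 and 1.07 CPM with uninjured and 1.297, 2.53 and 6.29 CPM with injured BALF at 6 h. The groups did not overlap at these low levels. The change was 4.02-fold (log2 2.01 ± 0.55, edgeR adjusted p = 0.039). At 24 h Rtp4 had 0.673, 2.26 and 3.71 CPM with uninjured and 1.39, 6.00 and 14.6 CPM with injured BALF (log2 1.73 ± 0.51, edgeR adjusted p = 0.048). The groups overlapped, and the call was lost in 8 of 12 fits that left out 1 library at each time. Without female injured BALF 24 h replicate 3 the 24 h value was 0.83, with an edgeR adjusted p of 0.30. In addition, 11.6% of the 50-base words of Rtp4 occur in an overlapping gene model on the same strand.

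Ifit2 belongs to the tetratricopeptide family that binds viral RNA and eIF3, and lies beside Ifit3 and Ifit1. At 6 h it had 19.6, 21.8 and 23.4 CPM with uninjured and 21.5, 29.3 and 39.02 CPM with injured BALF. The groups overlapped only through female injured BALF 6 h replicate 3, at 21.5 CPM. The change was 1.40-fold (log2 0.49 ± 0.12, edgeR adjusted p = 0.016). At 24 h it had 22.7, 33.2 and 37.9 CPM with uninjured and 30.1, 44.0 and 47.1 CPM with injured BALF (log2 0.36 ± 0.12, edgeR adjusted p = 0.085). In injured BALF at both times the female replicate 3 library was lowest for Ifit2, and in those libraries 32 (6 h) and 36 (24 h) of the 37 tested members lay above their group mean.

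Ifit1, which binds foreign RNA ends, had mean levels of 2.48 ± 1.11 and 7.69 ± 4.29 CPM (SD, n = 6) with uninjured and injured BALF at 6 h and of 5.51 ± 4.31 and 18.4 ± 17.7 CPM at 24 h. Its fitted changes were among the larger ones (log2 1.63 ± 0.60 and 1.74 ± 0.58) and did not pass (edgeR adjusted p = 0.17 and 0.089). At 24 h the injured libraries ran from 3.47 CPM in female replicate 2 to 49.5 CPM in female replicate 3. Ifit3, which pairs with IFIT1, gave log2 0.83 ± 0.47 and 0.74 ± 0.45, and 51.2% of its 50-base words also occur in Ifit3b, so its counts are uncertain. Bst2 had 16.0, 30.3 and 49.8 CPM with uninjured and 18.5, 30.6 and 58.3 CPM with injured BALF at 6 h, with nearly equal medians (log2 0.08 ± 0.40). At 24 h its medians were 28.5 and 53.3 CPM and its groups overlapped (log2 0.75 ± 0.40, edgeR adjusted p = 0.36). Rsad2 (viperin) and its chromosomal neighbour Cmpk2, whose products make and supply an antiviral nucleotide, gave 0.80 ± 0.54 and 1.37 ± 0.49 at 6 h and 1.31 ± 0.55 and 1.35 ± 0.46 at 24 h, none called. The others, Mx2, Xaf1, Ifi35 and Ifi44, gave log2 fold changes from 0.15 to 1.04 at 6 h and from 0.07 to 1.76 at 24 h without a call.

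Among transcription factors, Stat2 and Irf9, partners in the ISRE-binding complex, and Irf1 and Irf7, which amplify the response, 0 of 4 were called at either time. Irf9 had 12.1, 13.5 and 18.9 CPM with uninjured and 14.2, 20.5 and 27.8 CPM with injured BALF at 6 h (log2 0.52 ± 0.24, edgeR adjusted p = 0.32), and Stat2 had 11.4, 14.0 and 16.9 CPM against 10.7, 16.9 and 23.8 CPM (0.25 ± 0.29). At 24 h Stat2 ran from 19.0 to 46.8 CPM with uninjured and from 18.4 to 60.8 CPM with injured BALF, so the groups overlapped over the whole uninjured range. Irf7 gave the largest change of the 4 at 24 h (log2 1.11 ± 0.48, edgeR adjusted p = 0.22).

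Nucleic acid sensors and their aids gave 0 calls among 6 at both times. Ddx58 (RIG-I), a sensor of viral RNA ends, had 24.2, 28.4 and 47.8 CPM with uninjured and 39.6, 53.2 and 64.2 CPM with injured BALF at 6 h. Only female uninjured BALF 6 h replicate 3 reached into the injured range, and the edgeR adjusted p was 0.053 (log2 0.70 ± 0.20). Ifih1 (MDA5), which senses long double-stranded RNA, gave 0.97 ± 0.33 (edgeR adjusted p = 0.13). Eif2ak2 (PKR), the kinase that halts translation, had 30.7, 36 and 48.9 CPM with uninjured and 36.96, 49.5 and 63.9 CPM with injured BALF at 6 h and medians of 51.1 and 66.4 CPM at 24 h, with overlap at both times (log2 0.34 ± 0.14 and 0.33 ± 0.13). Zbp1, a sensor of left-handed nucleic acid, gave 0.75 ± 0.64 and 1.76 ± 0.62, Dhx58 (LGP2) 0.23 ± 0.44 and 0.82 ± 0.41, and Trim25, the ubiquitin ligase that aids RIG-I, 0.18 ± 0.13 and 0.33 ± 0.13.

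The ISG15 system and the OAS family held the member with the widest spread relative to its abundance, Isg15. Isg15 had 5.40, 7.47 and 16.2 CPM with uninjured and 4.497, 8.37 and 24.3 CPM with injured BALF at 6 h (log2 0.29 ± 0.56). At 24 h it had 3.19, 8.14 and 13.5 CPM with uninjured and 3.39, 20.6 and 39.7 CPM with injured BALF (log2 1.40 ± 0.56, edgeR adjusted p = 0.18). The lowest injured library lay near the lowest uninjured one, while 3 injured libraries lay above each uninjured one. Usp18, the protease that removes ISG15, had 0.633, 2.08 and 3.39 CPM with uninjured and 1.02, 6.30 and 12.8 CPM with injured BALF at 24 h, with overlap (log2 1.75 ± 0.59, edgeR adjusted p = 0.094). Enzymatically active OAS proteins make a second messenger that activates RNase L. The 5 tested members of the family, OAS-like genes included, had median log2 fold changes of 0.99 at 6 h and 1.34 at 24 h with 0 calls. Oasl2, of the highest counts among them, ran from 1.88 to 32.1 CPM among injured and from 0.814 to 10.7 CPM among uninjured libraries at 24 h (log2 1.72 ± 0.66, edgeR adjusted p = 0.15). Oas2 had 0.225, 0.640 and 1.95 CPM with uninjured and 0.326, 1.81 and 3.99 CPM with injured BALF at 24 h, with overlap (log2 1.23 ± 0.58). For Oas1a (1.43 ± 0.82), 57.6% of 50-base words occur in Oas1g or Oas1b, so its counts are uncertain; Oas3 and Oasl1 gave 1.34 ± 0.74 and 1.2 ± 0.58.

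**Figure D2:**
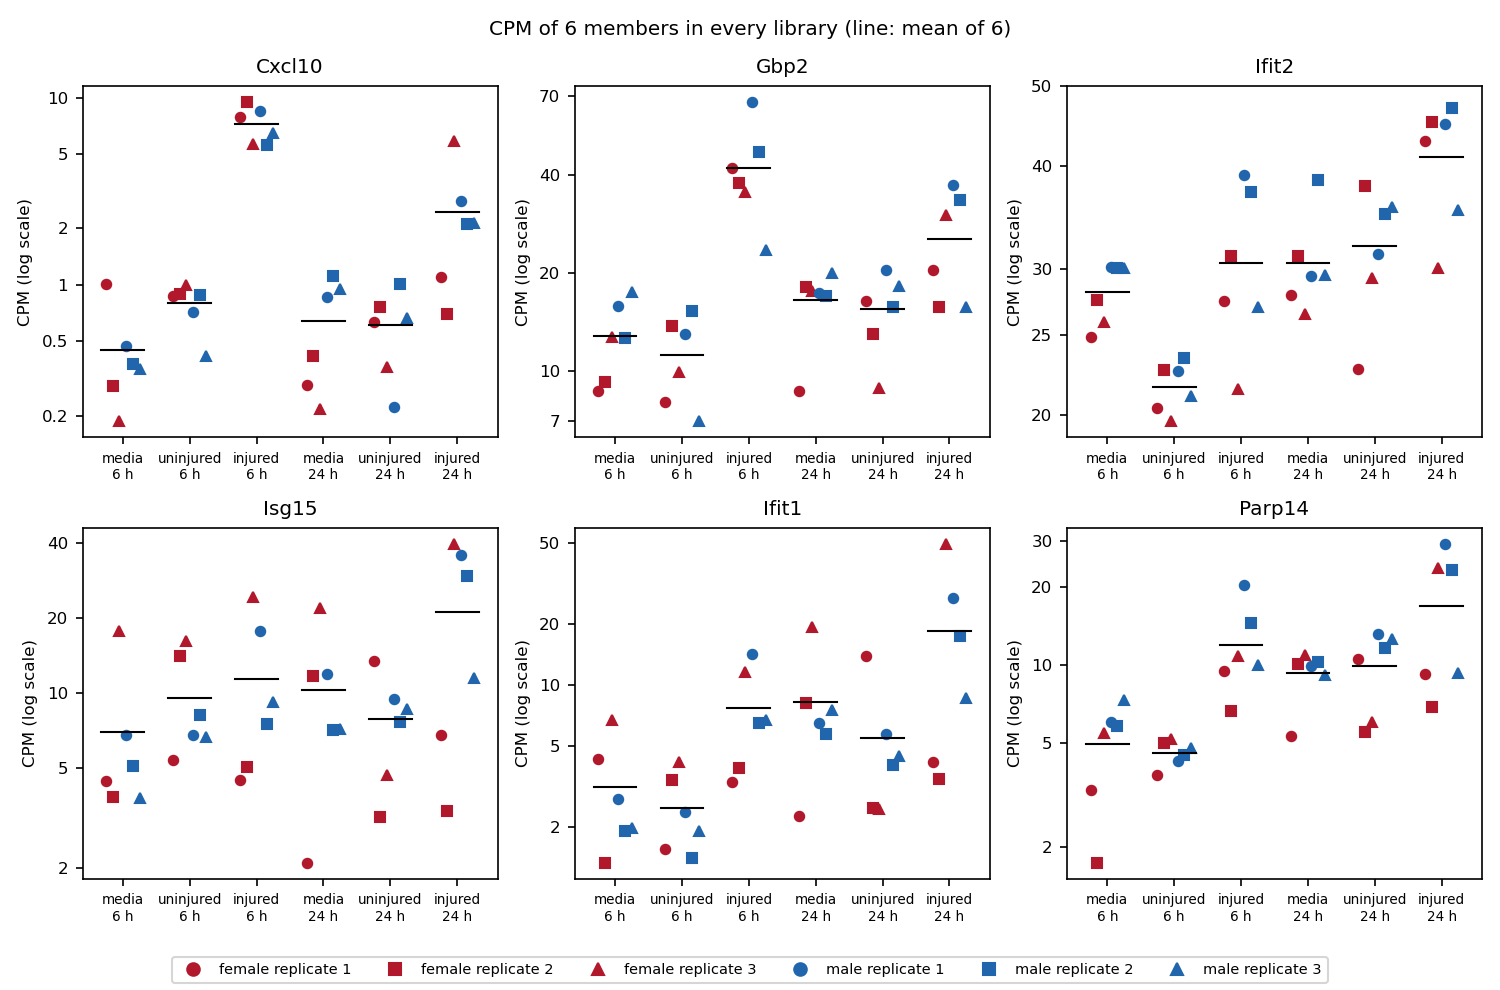
CPM (log axis) of 6 members in each of the 36 libraries by treatment and time, coloured by sex and shaped by replicate number, with the mean of 6 as a line. Cxcl10 and Gbp2 separate injured from uninjured BALF at 6 h, Isg15 and Ifit1 span a wide range inside single groups, and Ifit2 is lowest with uninjured BALF at 6 h.

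The change with injury was compared between times directly. Of the 37 tested members, 0 were called for a difference between 24 h and 6 h in the change of injured against uninjured BALF (0.233% of all tested genes were called, 0.145% higher and 0.0880% lower; 2 members had an unadjusted p under 0.05 and DESeq2 called 0). Those 2 were Gbp2, at -1.18 ± 0.35 on the log2 scale (edgeR adjusted p = 0.20), and Cxcl10, at -1.18 ± 0.56 (edgeR adjusted p = 0.63). With the libraries numbered 3 left out, 1 member was called, Gbp2.

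Uninjured BALF was compared with media to see the response to lavage fluid itself. At 6 h, 1 member rose and 1 fell among 37 tested, where 10.5% of all tested genes were called higher, 7.81% lower and 18.4% either way. Trim25 rose from 28.7 ± 3.66 to 45.8 ± 3.62 CPM (mean ± SD, n = 6), with no overlap (log2 0.68 ± 0.14, edgeR adjusted p = 6.7e-04), a call that held under each alternative tried. Ifit2 fell from 28.2 ± 2.39 to 21.6 ± 1.48 CPM, again without overlap (log2 -0.38 ± 0.12, edgeR adjusted p = 0.027), and its call was lost without any one of female uninjured BALF 6 h replicates 1 and 3, male uninjured BALF 6 h replicate 3 and female media 6 h replicate 2. Irgm1 also lay below media in each of the 6 libraries without being called (log2 -0.31, edgeR adjusted p = 0.12), so 2 members had all their libraries below and 1, Trim25, above, where 3.87% and 7.18% of all tested genes did. The members' median was -0.05 (all tested genes, -0.01). At 24 h, 0 of 37 were called by edgeR or by DESeq2 (0.868% of all tested genes were called by edgeR, 0.516% higher and 0.352% lower), 1 member had an unadjusted p under 0.05, and the median was -0.16 (all tested genes, -0.004).

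Injured BALF against media uses the same injured libraries as the comparison with uninjured BALF, so its values stand beside those above and are not separate evidence. At 6 h, 6 of 37 rose and 0 fell (13.8% of all tested genes were called higher, 11.4% lower and 25.2% either way), and the median was 0.77 (all tested genes, -0.01). Cxcl10 rose by 4.05 ± 0.43 on the log2 scale (edgeR adjusted p = 6.6e-08), Cmpk2 by 1.78 ± 0.50 (edgeR adjusted p = 0.0090), Gbp2 by 1.74 ± 0.25 (edgeR adjusted p = 6.1e-06), Rsad2 by 1.64 ± 0.57 (edgeR adjusted p = 0.033) and Parp14 by 1.28 ± 0.29 (edgeR adjusted p = 0.0016). Trim25 was the sixth. The count was 11 without female media 6 h replicate 3, the media library in which members were highest. Of 8 tested pericyte markers 5 were called lower in this comparison (median log2 -0.69), with sums of 620 to 1246 CPM against 1065 to 1859 CPM in media, and of 8 tested macrophage markers 1 was called higher. The lowest macrophage sum in media at 6 h, 17.3 CPM, was that of male replicate 3, whose description number begins differently. At 24 h, 5 of 37 rose and 0 fell (11.5% of all tested genes were called higher, 12.1% lower and 23.6% either way), with a median of 0.62 (all tested genes, -0.01). Zbp1 rose by 2.36 ± 0.65 (edgeR adjusted p = 0.0086), Cxcl10 by 2.16 ± 0.42 (edgeR adjusted p = 3.5e-04), Gbp3 by 1.53 ± 0.50 (edgeR adjusted p = 0.028), Parp14 by 0.83 ± 0.28 (edgeR adjusted p = 0.034) and Ifit2 by 0.43 ± 0.12 (edgeR adjusted p = 0.0093). The count was 12 without female media 24 h replicate 3, 9 without female injured BALF 24 h replicate 2 and 8 without male injured BALF 24 h replicate 3. It was 3 without any one of 2 injured BALF 24 h libraries (replicate 3 of the female and 1 of the male group) or 3 media 24 h libraries (replicate 1 of the female and 2 and 3 of the male group). Without female injured BALF 24 h replicate 3, Zbp1 gave 1.55 (edgeR adjusted p = 0.065), Gbp3 0.78 (edgeR adjusted p = 0.23) and Parp14 0.48 (edgeR adjusted p = 0.18), none called, while Cxcl10 gave 1.40 and Ifit2 0.52, both called.

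Markers of cell types moved in the comparison of injured BALF with media at 24 h as well. Of 8 tested pericyte markers 6 were called lower (median log2 -1.01), and their sums of 591.4 to 996.9 CPM lay below the 1356 to 2566 CPM of media. Each of the 3 tested neutrophil markers was called higher (median 2.66), with sums of 5.35 to 8.97 CPM against 0.348 to 1.89 CPM. Of 8 tested macrophage markers 4 were called higher (Csf1r, Cd14, Mrc1 and Itgam), with sums of 62.3 to 78.0 CPM against 17.1 to 57.4 CPM. The lowest media sums, 17.1 and 18.5 CPM, were those of female replicate 2 and male replicate 3, whose description numbers begin differently. The other media libraries ran from 37.3 to 57.4 CPM. No injured library was of that kind, so library kind and treatment cannot be fully told apart for the macrophage markers. The same limit holds for the members against media. Media at 6 and 24 h also held unlike numbers of such libraries, which touches the change over time in media. Counts of called members without these libraries are given in the closing section where they moved. The part of these cell type markers in the members' values was not tested.

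The members' median change from 6 to 24 h was above 0 under each treatment, media included. In media 6 of 37 rose and 0 fell (3.50% of all tested genes were called higher, 3.33% lower and 6.82% either way), with a median of 0.77 (all tested genes, 0.03). Ifit3 rose by 1.56 ± 0.46 (edgeR adjusted p = 0.041), Stat2 by 1.08 ± 0.28 (edgeR adjusted p = 0.022), Parp14 by 0.97 ± 0.29 (edgeR adjusted p = 0.042), Dtx3l by 0.79 ± 0.23 (edgeR adjusted p = 0.039) and Irf9 by 0.78 ± 0.24 (edgeR adjusted p = 0.043), and Trim25 was the sixth. The count depended on single libraries: 0 were left without female media 24 h replicate 3, female media 6 h replicates 1 or 2, male media 24 h replicate 3 or male media 6 h replicates 1 or 2. The count was 1 without male media 24 h replicate 1, 3 without female media 24 h replicate 2 or male media 6 h replicate 3, and 10 without female media 24 h replicate 1.

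With uninjured BALF 10 of 37 rose between 6 and 24 h and 0 fell (15.1% of all tested genes were called higher, 15.5% lower and 30.6% either way), with a median of 0.57 (all tested genes, 0.02), which was 0.19 without all libraries numbered 1. The share of members called either way was thus near that of all genes. Rtp4 rose by 1.56 ± 0.55 (edgeR adjusted p = 0.033), Gbp7 by 1.42 ± 0.35 (edgeR adjusted p = 0.0031), Stat2 by 1.23 ± 0.29 (edgeR adjusted p = 0.0018), Parp9 by 1.12 ± 0.27 (edgeR adjusted p = 0.0022) and Parp14 by 1.07 ± 0.29 (edgeR adjusted p = 0.0065). Stat2, for example, had medians of 14.0 CPM at 6 h and 33.0 CPM at 24 h without overlap. The other 5 were Dtx3l, Irf1, Ddx58, Ifit2 and Eif2ak2, and the count was 6 without female uninjured BALF 24 h replicate 1 or female uninjured BALF 6 h replicate 1.

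With injured BALF 5 of 37 rose and 2 fell (12.7% of all tested genes were called higher, 14.2% lower and 26.9% either way), with a median of 0.58 (all tested genes, 0.01). The 2 that fell were those with the smallest p-values against uninjured BALF at 6 h. Cxcl10 fell by 1.55 ± 0.37 on the log2 scale (edgeR adjusted p = 0.0025), from 7.25 ± 1.60 to 2.45 ± 1.84 CPM (mean ± SD, n = 6), and Gbp2 fell by 0.73 ± 0.24 (edgeR adjusted p = 0.025), from 42.2 ± 14.6 to 25.5 ± 9.42 CPM. The Gbp2 call was lost in 4 of 12 fits that left out 1 library. Oas2 rose by 1.60 ± 0.60 (edgeR adjusted p = 0.047), Dhx58 by 1.42 ± 0.43 (edgeR adjusted p = 0.014) and Stat2 by 1.15 ± 0.28 (edgeR adjusted p = 0.0033), and Eif2ak2 and Ifit2 rose too. Without female injured BALF 24 h replicate 3, Oas2 gave 0.65 and Dhx58 0.61, and neither was called. The count was 4 without that library or without female injured BALF 6 h replicate 1, 13 without female injured BALF 24 h replicate 1 or 2, and 16 without female injured BALF 6 h replicate 3. These 3 comparisons over time share their libraries with the comparisons between treatments.

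Between the sexes, over the 6 treatments and times, edgeR called 0 of the 37 tested members (5.26% of all tested genes were called, 2.26% higher in female and 3.00% lower); 7 had an unadjusted p under 0.05 and DESeq2 called 1. The smallest adjusted p-values were those of Trim25 (female minus male log2 -0.24 ± 0.08, edgeR adjusted p = 0.068) and Parp14 (-0.51 ± 0.17, edgeR adjusted p = 0.074). The count was 2 without any one of female injured BALF 24 h replicate 3, female injured BALF 6 h replicate 3, male injured BALF 24 h replicate 3 or female uninjured BALF 24 h replicate 1. It was 1 without any one of 4 other female libraries, replicate 2 of uninjured BALF 24 h, replicates 2 and 3 of media 24 h and replicate 3 of media 6 h. The change with injured BALF at 6 h was smaller in female than in male libraries for 37 of the 37 tested members, with a median difference of -0.45. Of all tested genes, 48.0% had a difference above 0, with a median of -0.008. The members vary together, and in male injured BALF 6 h replicate 1 all 37 lay above their group mean. Of the members, 0 passed the test of that difference and 0 had an unadjusted p under 0.05, and 0% of all tested genes passed. At 24 h 0 were called as well (0% of all tested genes), with a median of -0.21.

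The members varied more between libraries of a group than most genes did. The biological coefficient of variation, the spread left after counting noise, lay above the trend for genes of like abundance in 34 of the 37, where 29.0% of all tested genes lay above it. Its ratio to the trend had a median of 1.71 for members and 0.787 for all genes. The highest ratios were those of Isg15 (2.82), Bst2 (2.68), Oasl2 (2.57), Ifit1 (2.55) and Ifi44 (2.54). Ifit2 (0.838), Trim25 (0.980) and Eif2ak2 (0.996) were the 3 below it.

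This variation was shared. After subtraction of each group's mean, the log2 levels of pairs of members had a median Pearson correlation of 0.782 over the 36 libraries (666 pairs), while members and other tested genes had a median of 0.018. Each point shares its library, depth and scaling with all others, so the value is a description. With the median of the other members, 27 of the 37 tested members had a correlation of at least 0.8, led by Igtp (0.975), Ifit1 (0.967), Gbp3 (0.966) and Oasl2 (0.964). At the other end stood Cxcl10 (0.402), Rsad2 (0.292) and Ifit2 (-0.448). Gbp2 (0.642) and Irgm1 (0.619) lay between. Cxcl10 and Gbp2, which had the smallest p-values for injured against uninjured BALF at 6 h, were thus among the 5 of lowest correlation. The other members without overlap in that comparison had high correlations. They were Gbp3 (0.966), Rtp4 (0.954), Parp9 (0.936), Dtx3l (0.922), Parp14 (0.896) and Gbp7 (0.842).

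**Figure D3:**
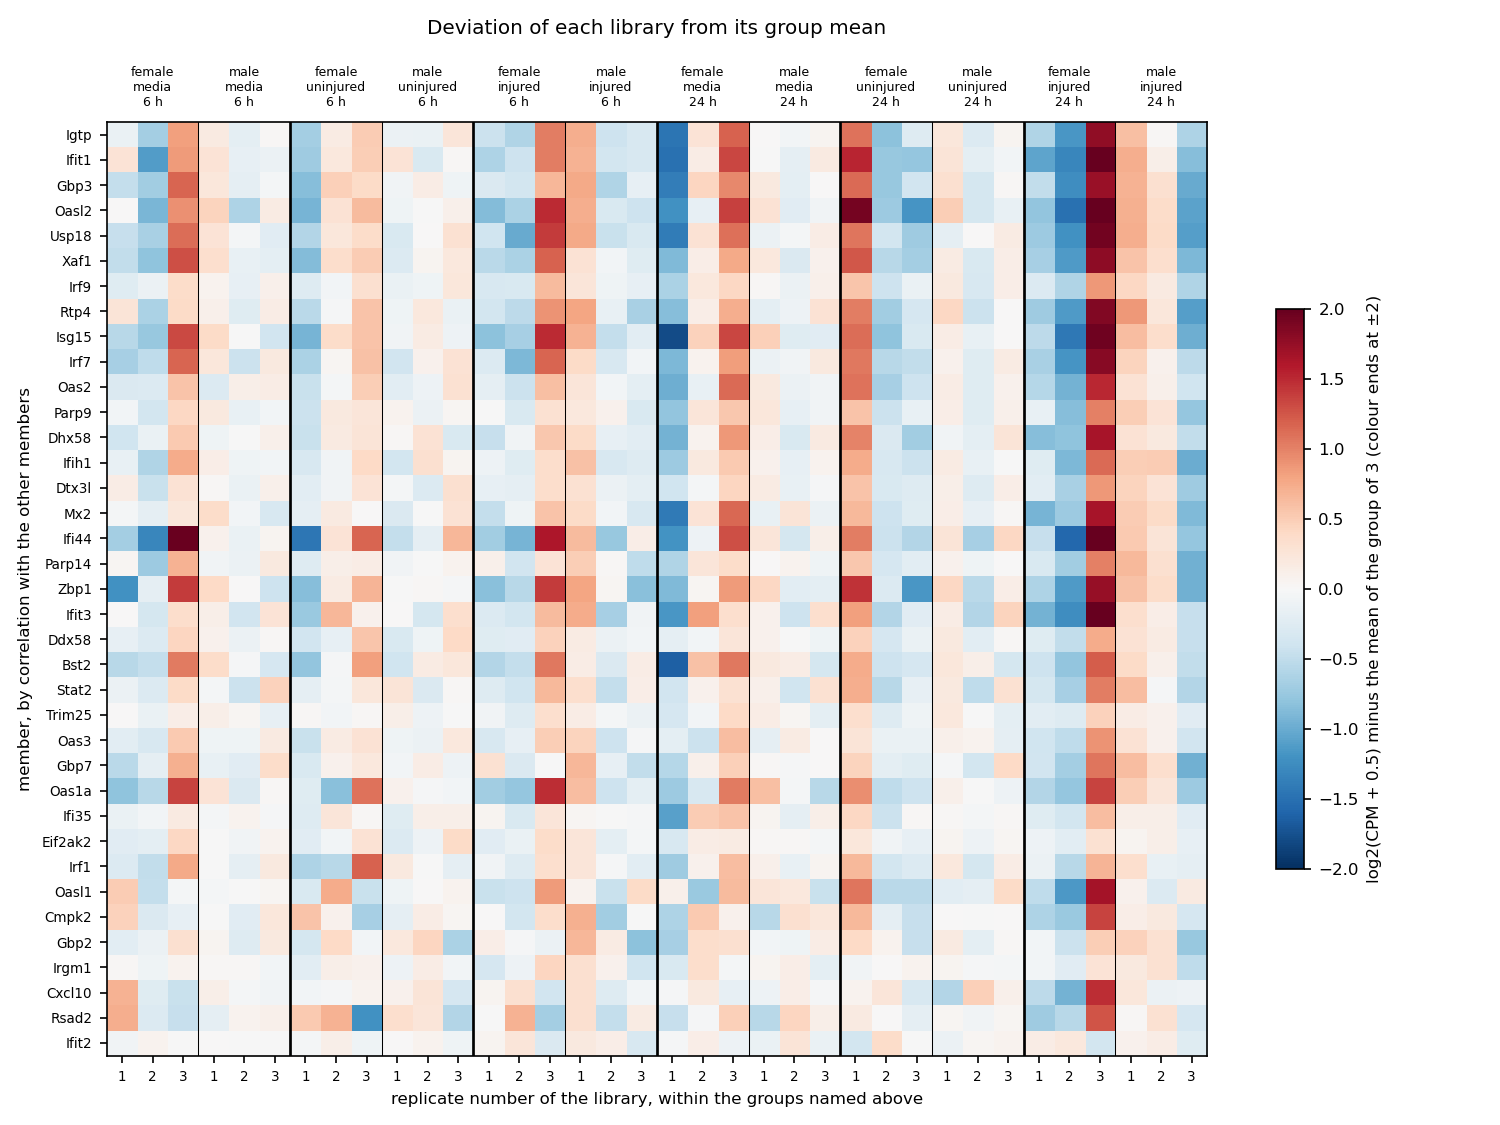
Deviation of each of the 37 tested members from its group mean (log2 CPM, colour) in each of the 36 libraries, with members ordered by their correlation with the others. Most members are high or low together within a library, as in female injured BALF 24 h replicate 3, where 36 of 37 lie above their group mean, and Ifit2 runs the other way.

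The median level of the tested members in each library placed the shared variation. Each member's log2 of CPM + 0.5 was first set relative to its mean over the 36 libraries, so the values give no absolute level. In injured BALF at 24 h the median ran from -0.44 in female replicate 2 to 1.68 in female replicate 3, a range of 2.12. The means of uninjured and injured BALF at that time were -0.01 and 0.62. The range inside 1 group thus exceeded the difference between group means. In the other 5 treatments and times the range lay between 0.73 and 1.35. The highest library of a group carried the number 3 in 6 of the 12 groups, the number 1 in 6 and the number 2 in 0. Among the female groups it was replicate 3 in 5 of 6; in female uninjured BALF 24 h it was replicate 1, at 0.59 against -0.45 and -0.47 in replicates 2 and 3. Among the male groups it was replicate 1 in 5 of 6.

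Endothelial transcripts moved alongside in the female groups. Summed endothelial markers (8 genes, 8 tested, none at 0) ran from 100.5 to 148.3 CPM in the 6 female libraries with the highest member median of their group and from 15.8 to 123.2 CPM in the other 12. The library with the highest member median also had the highest endothelial sum in 5 of 6 female and 3 of 6 male groups. In 3 male replicate 3 libraries (uninjured and injured BALF at 6 h, injured BALF at 24 h) the endothelial sum was 179.0 to 203.8 CPM, against 7.69 to 35.8 CPM in the other 15 male libraries. The member median was the lowest of its group in both of the injured ones and the highest in the uninjured one. The remaining male replicate 3 libraries have description numbers that begin differently, and their sums were 7.69 to 9.82 CPM. Female media 24 h replicate 2, with 15.8 CPM, is of the same kind. The part of endothelial cells in the members' variation was not tested.

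**Figure D4:**
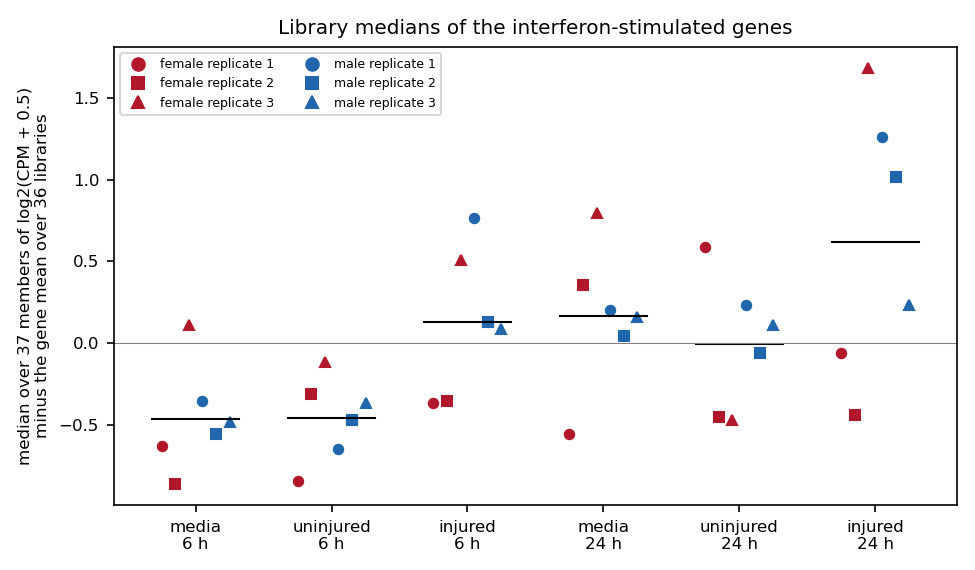
Median over the 37 tested members of log2 of CPM + 0.5, minus each gene's mean over the 36 libraries. Each library is shown by treatment and time, with colour for sex and shape for replicate number. Injured BALF at 24 h spans from -0.44 to 1.68, wider than the other 5 groups of 6 libraries.

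Genes that make, receive and pass on interferon were read from lists beside the members. Of 10 interferon genes, 0 passed the filter: Ifne had 8 counts, Ifnb1 and Ifnl2 had 1 each, and Ifng, Ifna1, Ifna2, Ifna4, Ifna5, Ifnk and Ifnl3 had 0 over all 36 libraries. Transcripts of these 10 genes were thus not detectable, or nearly not, at this depth and at 6 and 24 h. Interferon genes outside this list were not read, and proteins of the BALF were not analysed here. Of 6 tested receptor genes, 3 rose with injured against uninjured BALF at both times. Of all tested genes, 1.96% were called higher at 6 h and 2.39% at 24 h. Ifnar1, a chain of the type I receptor, rose by 0.31 ± 0.06 at 6 h (edgeR adjusted p = 0.0035) and by 0.31 ± 0.06 at 24 h (edgeR adjusted p = 0.0034). Ifnar2, its partner, rose by 0.68 ± 0.16 (edgeR adjusted p = 0.011) and 0.71 ± 0.16 (edgeR adjusted p = 0.0073), and Ifngr2, of the gamma receptor, by 0.31 ± 0.08 (edgeR adjusted p = 0.018) and 0.36 ± 0.08 (edgeR adjusted p = 0.0054). Ifnar1 at 6 h, for instance, ran from 100.6 to 112.5 CPM with uninjured and from 116.6 to 149.9 CPM with injured BALF, without overlap.

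Of 9 tested signal transducers, Jak2 (0.53 ± 0.10, edgeR adjusted p = 0.0015) and Tyk2 (0.32 ± 0.07, edgeR adjusted p = 0.0081), both receptor-bound kinases, rose at 6 h and 0 were called at 24 h. Of 11 genes that induce interferon, Ikbke, a kinase that activates IRF3, rose at 6 h (0.89 ± 0.18, edgeR adjusted p = 0.0032) and at 24 h (0.85 ± 0.18, edgeR adjusted p = 0.0043), and Traf3, an adaptor of that pathway, rose at 24 h (0.38 ± 0.09, edgeR adjusted p = 0.018). Of 7 brakes, 0 were called at 6 h, and Ptpn2, a phosphatase of JAK and STAT proteins, rose at 24 h (0.32 ± 0.09, edgeR adjusted p = 0.032). Beside these counts, 3.40% of all tested genes were called either way at 6 h and 4.43% at 24 h.

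Of 48 listed interferon-stimulated genes outside the 39, 45 were tested, of which 3 rose and 0 fell at 6 h and 3 rose and 1 fell at 24 h, with medians of 0.47 and 0.44. Of all tested genes, 1.96% were called higher and 1.45% lower at 6 h, and 2.39% and 2.04% at 24 h. Gbp5, a guanylate-binding protein of the same family as Gbp2, rose at 6 h from 0.208 ± 0.109 to 2.12 ± 0.497 CPM (mean ± SD, n = 6; log2 3.41 ± 0.66, edgeR adjusted p = 0.0018), with no overlap. Ifi203, a nuclear nucleic acid-binding protein, rose by 1.85 ± 0.52 (edgeR adjusted p = 0.043) and Ifi47, a GTPase, by 0.77 ± 0.17 (edgeR adjusted p = 0.0058) at 6 h. At 24 h Gbp6 rose by 3.17 ± 0.84 (edgeR adjusted p = 0.026), Ifi203 by 1.73 ± 0.51 (edgeR adjusted p = 0.0496) and Ifi47 by 0.58 ± 0.16 (edgeR adjusted p = 0.039), and Samhd1, which depletes nucleotides, fell by 0.43 ± 0.12 (edgeR adjusted p = 0.046).

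With uninjured BALF against media at 6 h, Ifnar1 rose by 0.49 ± 0.06 (edgeR adjusted p = 3.8e-06) and Ifngr2 by 0.40 ± 0.08 (edgeR adjusted p = 5.3e-04), 2 of 6 receptor genes, where 18.4% of all tested genes were called either way. The sensor-pathway genes Mb21d1 (cGAS, which detects DNA; 0.69 ± 0.15), Mavs (the adaptor of RIG-I; 0.47 ± 0.08) and Traf3 (0.47 ± 0.09) rose and Tlr3, a receptor of double-stranded RNA, fell by 0.41 ± 0.13, which makes 4 called of 11. Socs3, a feedback inhibitor of cytokine signalling, rose by 0.92 ± 0.24 and Trim24 fell by 0.50 ± 0.13, both among 7 brakes. Irf2, a repressor at ISRE sites, rose by 0.39 ± 0.10, 1 of 9 transducers. Of the 45 other interferon-stimulated genes, Daxx and Adar rose by 0.36 ± 0.06 and 0.28 ± 0.09, and Ifi47, Mov10, Samhd1 and Pml fell by 0.61 ± 0.17, 0.55 ± 0.19, 0.47 ± 0.12 and 0.30 ± 0.11. These 6 of 45 lie below the share of all tested genes. At 24 h 0 genes of these lists were called, where 0.868% of all tested genes were.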

How the data were processed

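RNA of 36 libraries was sequenced by the submitters from a stranded mRNA kit. The authors deposited whole-number counts per gene for each library; STAR 2.5.2b, RSEM 1.2.31, DESeq2 and GRCm38 are named in the submitters' processing notes, while their order and whether counting used the strand are not given in the sources used here. If the counts are rounded RSEM estimates, reads shared by gene copies were divided between them. Symbols were found for 48435 of 48795 identifiers (99.3%).

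Genes were filtered with edgeR 4.0.16 (filterByExpr), which left 15901, scaled by TMM (factors 0.874 to 1.092) and fitted with the robust quasi-likelihood test in R 4.3.3 as 12 separate groups, which leaves 24 residual degrees of freedom. Each comparison averages the effects in female and male libraries, and a call is a Benjamini-Hochberg adjusted p under 0.05 over all tested genes. Standard errors are the log2 fold change divided by the root of F. CPM use TMM-scaled totals. Library medians use log2 levels with a pseudocount of 0.5, minus each gene's mean over the 36 libraries. Totals of 17134840 to 35991683 counts set the precision, and floors take in no error other than that of counting. The fit was tested on simulated data.

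The members, the pathway and marker lists were chosen with earlier results of these data known. Values per library or as lowest, median and highest are given for members called in injured against uninjured BALF and for up to 2 members of highest CPM in each role. In other comparisons the 5 called members of largest change are given with values, and list genes are named where called, at most 6 for each list and comparison. Promoter windows come from RefSeq. Alternatives were DESeq2 1.42.0, RLE scaling, no filter, a replicate block, leaving out libraries, summing libraries 1 and 2, and fitting only the compared groups. The result of 1 listed gene is not reported here.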

Additional observations from a re-analysis of the deposited data

Results flagged for a closer look

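In 10 of 120 sets of 6 values, 1 library stood apart from the other 5, where chance gives about 1 in 20 sets. Each set held the values of 1 member, or the library medians, in 1 treatment and time. The sets share libraries and the members vary together, so the 10 are not separate observations. Female media 6 h replicate 3 was high for Ddx58 (52.39 CPM, next 36.46), Isg15 (17.75, next 6.819) and Gbp3 (5.606, next 2.488). Female media 6 h replicate 1 was high for Cxcl10 (1.015 CPM, next 0.4718). Female media 24 h replicate 3 was high for Oas2 (2.673 CPM, next 0.7997) and Oasl2 (12.57, next 4.033). Female media 24 h replicate 1 was low for Parp14 (5.341 CPM, next 9.178) and Gbp2 (8.708, next 17.01). Male injured BALF 6 h replicate 1 was high for Gbp7 (5.679 CPM, next 3.084), and female uninjured BALF 24 h replicate 1 was high for Oas2 (1.95 CPM, next 0.8305).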

How the results depend on the processing

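Of 45 called pairs of member and comparison, 0 changed direction; uncalled members were not followed singly. Of the 45, 21 were called after each single library was left out and 8 under each alternative: Cxcl10 against media at both times and against uninjured BALF at 6 h, Gbp2 against both at 6 h, Trim25 in injured and in uninjured BALF against media at 6 h, and Ifit2 over time in uninjured BALF. The members' median stayed between 0.58 and 0.97 (6 h) and between 0.29 and 1.42 (24 h) for injured against uninjured BALF, and changed sign for uninjured BALF against media (-0.17 to 0.12 at 6 h, -0.63 to 0.10 at 24 h), the difference between times (-0.34 to 0.64) and female against male (-0.52 to 0.22). The cause of the changes in counts was not tested. Leaving out whole replicate numbers and summing libraries 2 and 3 in female uninjured BALF 24 h were chosen after seeing the data.

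Leaving out 1 library gave 3 to 7 called members for injured against uninjured BALF at 6 h and 1 to 8 at 24 h, 1 to 3 for uninjured BALF against media at 6 h, 5 to 11 and 3 to 12 for injured BALF against media at 6 and 24 h, 0 to 10, 6 to 13 and 4 to 16 over time in media, uninjured and injured BALF, and 0 to 2 for female against male.

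Other settings are given where they moved a count by over 1.5 times. For injured against uninjured BALF at 6 h it was 2 with libraries 1 and 2 summed (either way of summing), 2 after leaving out all libraries numbered 1 or all numbered 2, 11 without libraries 3 and 11 with only the compared groups. At 24 h it was 5 with DESeq2, 0 without libraries 1, 0 with only the compared groups, and 1 without the filter, with either summing, without the 4 libraries of other description number, without libraries 2 or without libraries 3. For uninjured BALF against media at 6 h it was 1 with either summing, without the 4 libraries, or without libraries 1, 2 or 3. For injured BALF against media at 6 h it was 3 without libraries 2, 12 without libraries 3 and 13 with only the compared groups; at 24 h it was 3 without the filter, 1 with either summing, 2 without the 4 libraries, 2 without libraries 1, 1 without libraries 2 and 3 with only the compared groups. Over time in media it was 0 without the filter, with either summing, without the 4 libraries, and without libraries 1 or 2. In uninjured BALF it was 5 and 6 with the summings, 6 without the 4 libraries, 1 without libraries 1 and 18 without libraries 3; in injured BALF it was 3 and 2 with the summings, 1 without libraries 1, 1 without libraries 2 and 4 with only the compared groups. The difference between times gave 1 without libraries 3, and female against male 1 with DESeq2 and 10 without libraries 3.

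Replicate numbers were not taken as pairs in the main fit, and the labels do not say what they mark. Libraries were alike by number all the same. Of 36 libraries, 32 were closest to their own number, and 51 of 90 same-number pairs within a sex had a correlation over 0.1. The main p-values leave this likeness out. With a replicate block the count was 9 for injured against uninjured BALF at 6 h and 2 at 24 h, where Cxcl10 and Ifit2 were called and Gbp3 and Rtp4 were not. It was 3 for uninjured BALF against media at 6 h, 12 and 7 for injured BALF against media at 6 and 24 h, 11, 13 and 10 over time in media, uninjured and injured BALF, and 2 for female against male.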
